A study of Mus musculus with 6 samples.

Results

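A set of 9 genes of megakaryocytes and platelets were followed in the tibias of Atrx-cKO and control mice. They were the chemokine genes *Pf4* and *Ppbp*, the integrin gene *Itga2b*, the 4 genes of the GPIb-IX-V receptor (*Gp1ba*, *Gp1bb*, *Gp9* and *Gp5*), *Vwf* and *Treml1*. The 9 members were chosen by name out of 55401 gene identifiers in each count table, each symbol matched 1 identifier of GENCODE M21, and 8 of the 9 passed the filter on low counts.

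The study deleted the chromatin remodeler gene *Atrx* in preosteoblasts and sequenced polyadenylated RNA from whole tibias. Atrx-cKO mice (*Osterix-Cre; Atrx f/y*) and control mice (*Atrx f/y*) were males of 8 weeks, with 3 libraries in each group. Both groups carried the floxed *Atrx* allele, and Atrx-cKO mice alone carried Cre, so that an effect of the transgene and an effect of *Atrx* loss cannot be told apart. Cre was a Tet-off transgene driven by *Osterix* (*Sp7*), a gene of osteoblast-lineage cells, and doxycycline kept it off until 3 weeks of age. Megakaryocytes are not cells of that lineage.

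Megakaryocytes are very large, polyploid cells of the bone marrow that grow from hematopoietic stem and progenitor cells under thrombopoietin. They shed platelets through the wall of marrow sinusoids. Platelets carry megakaryocyte RNA but have no nucleus. At a wound, the GPIb-IX-V receptor catches von Willebrand factor, the αIIbβ3 integrin binds fibrinogen, and granules release chemokines and clotting proteins. Whole bone with its marrow therefore holds megakaryocytes, platelets and circulating blood together with the bone cells in which Cre was active.

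Each library held between 50977777 and 70571655 reads assigned to genes. Counts were scaled to CPM (counts of a gene scaled to a common library total) with TMM factors between 0.944 and 1.05, and 3 counts, the limit that a count of 0 allows, equaled 0.0425 to 0.0588 CPM for counting error alone. *Atrx* itself, counted over the whole gene, was at 153, 166 and 171 CPM in Atrx-cKO replicates 1 to 3 and at 174, 166 and 165 CPM in control replicates 1 to 3. These ranges overlapped, so whole-gene *Atrx* counts did not separate the genotypes (log2 fold change of -0.05, SE 0.08, adjusted p = 0.992 in the quasi-likelihood fit of edgeR, with p-values adjusted by Benjamini and Hochberg's method over all genes). By RT-PCR the study reported lower *Atrx* in Atrx-cKO tibias, and it attributed what remained to cells outside the osteoblast lineage.

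The 8 measurable members showed 1 pattern across the 6 libraries. Control replicate 1 had the highest level of every one of them, control replicates 2 and 3 had the lowest levels, and the 3 Atrx-cKO libraries lay close together in between. Control replicate 1 was the highest library for 15.1% of the 20636 genes tested, and control replicates 2 and 3 were both below the other 4 libraries for 11.1%. No member separated the genotypes. In bulk tissue, a change in the number of megakaryocytes or platelets and a change in RNA per cell cannot be told apart.

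**Figure D1:**
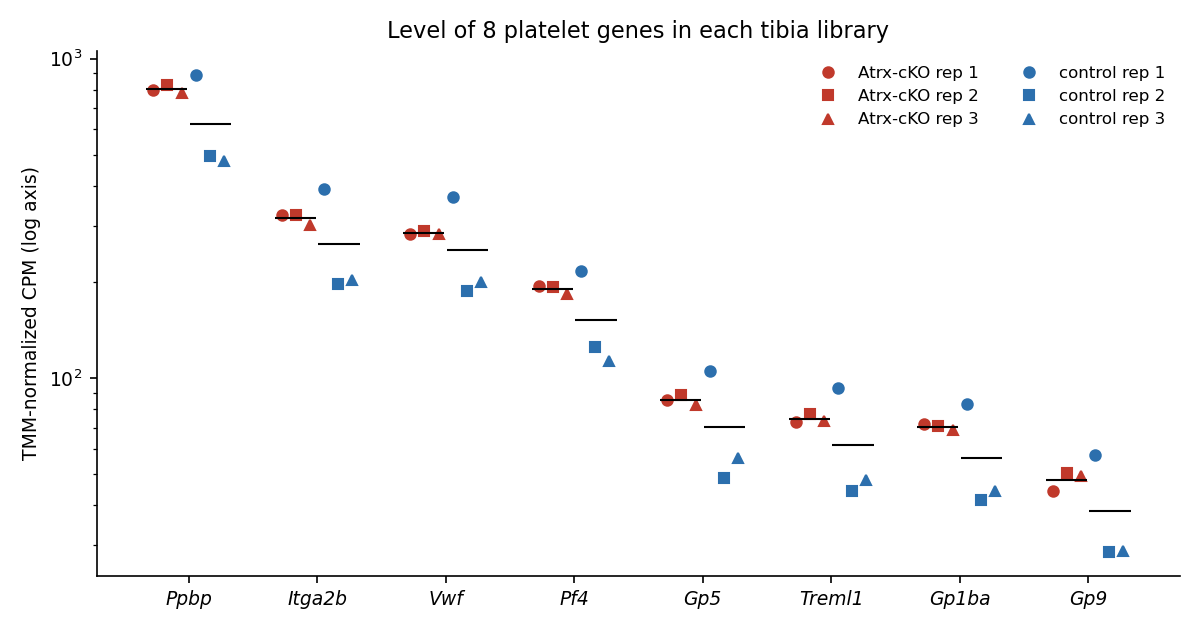
TMM-normalized CPM (log axis) of the 8 members that passed the filter, with 1 point for each library (red, Atrx-cKO; blue, control; circle, square and triangle for replicates 1, 2 and 3) and a line at each group mean. For *Ppbp*, control replicate 1 is at 891 CPM and the other controls are at 496 and 479 CPM, with the Atrx-cKO libraries from 781 to 829 CPM, and the other 7 genes are laid out alike.

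The stretch of 120 bases before the RefSeq start (table of build GRCm38.p6) is shown for the neighboring chemokine genes, which had the highest levels per exon length, and for 3 subunits of the GPIb-IX-V receptor, which kept close to fixed ratios in every library. Each runs 5′ to 3′ on the strand of its gene and ends 1 base before the start. Capitals mark matches on either strand to a GATA motif (AGATAA or TGATAA) or an ETS motif (AGGAAG or CGGAAG), the binding letters of factor families known from megakaryocytes.
Ppbp, chr5:90768398-90768517, plus strand: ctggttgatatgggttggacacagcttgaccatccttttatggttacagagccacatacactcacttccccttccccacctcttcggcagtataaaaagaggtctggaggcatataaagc
Pf4, chr5:90772315-90772434, plus strand: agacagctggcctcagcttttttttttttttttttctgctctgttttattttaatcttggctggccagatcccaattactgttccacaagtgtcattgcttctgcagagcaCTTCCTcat
Gp1ba, chr11:70639002-70639121, plus strand: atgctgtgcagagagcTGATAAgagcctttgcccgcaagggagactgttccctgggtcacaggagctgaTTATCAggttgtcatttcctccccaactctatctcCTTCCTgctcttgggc
Gp9, chr6:87777950-87778069, plus strand: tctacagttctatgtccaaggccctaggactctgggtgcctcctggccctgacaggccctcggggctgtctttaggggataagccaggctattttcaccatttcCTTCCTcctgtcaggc
Gp5, chr16:30310782-30310901, minus strand: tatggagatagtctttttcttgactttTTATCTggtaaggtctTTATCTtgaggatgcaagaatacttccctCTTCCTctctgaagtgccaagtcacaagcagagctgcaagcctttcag

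The same table held 8 of the 9 members, with *Vwf* as the exception. A GATA motif lay within 250 bases of the start in 2 of the 8, *Gp1ba* and *Gp5*, against 16.6% of 32851 promoters. *Gp1ba* had its pair of GATA matches at 104 to 99 and 51 to 46 bases before the start, and *Gp5* at 93 to 88 and 77 to 72. An ETS motif lay in the same window in 6 of the 8 members, against 39.2% of promoters, and no ETS match overlapped a GATA match in these members. For *Gp1bb*, annotated exons covered all 120 bases before the start, including its ETS match at 90 to 85 bases. For *Itga2b* they covered 61 of the 120 bases, and whether its ETS matches lay in exon was not examined. In *Gp1ba* and *Gp9* the ETS match stood at the same distance, 16 to 11 bases before the start, and in *Pf4* at 9 to 4 bases. *Ppbp* and *Treml1* held neither motif. These matches describe letters and are not evidence of binding.

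*Ppbp* (ENSMUSG00000029372) and *Pf4* (ENSMUSG00000029373) encode chemokines that platelets store in alpha granules, the precursor of CXCL7 and CXCL4. Both lie on the plus strand of chromosome 5 in GENCODE M21 on GRCm38, *Ppbp* at 90768518 to 90770063 and *Pf4* at 90772435 to 90773383, with 2371 bases between them. *Ppbp* was at 797, 829 and 781 CPM in Atrx-cKO replicates 1 to 3 and at 891, 496 and 479 CPM in control replicates 1 to 3. The Atrx-cKO libraries thus fell inside the gap among the controls, and the groups overlapped. The means were 802 ± 24.8 CPM in Atrx-cKO and 622 ± 233 CPM in controls (SD, n = 3 each), a log2 fold change of 0.37 (SE 0.23).

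*Pf4* was at 194, 193 and 184 CPM in Atrx-cKO and at 217, 125 and 113 CPM in controls. Control replicate 3 was the lowest library for *Pf4* and *Ppbp*, whereas control replicate 2 was the lowest for the other 6 members. The means of *Pf4* were 190.3 ± 5.56 and 152 ± 56.7 CPM, and the log2 fold change was 0.33 (SE 0.23). The ratio of *Ppbp* to *Pf4* per kb of merged exon stayed between 2.64 and 2.86 in all 6 libraries.

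*Itga2b* (ENSMUSG00000034664; chromosome 11, 102453297 to 102470122, minus strand) encodes the integrin αIIb chain, which with β3 forms the fibrinogen receptor of platelets. Its level was 325, 325 and 301 CPM in Atrx-cKO and 390, 197 and 203 CPM in controls. Control replicate 1 stood above every Atrx-cKO library and the other controls stood below them all. With means of 317 ± 13.5 and 263 ± 109 CPM, the log2 fold change was 0.27 (SE 0.25). *Itgb3*, the β3 partner, was at 618, 632 and 644 CPM in Atrx-cKO and 722, 439 and 552 CPM in controls. It had the same highest library and the same pair of lowest libraries, but β3 is also an osteoclast integrin chain, and the *Itga2b* to *Itgb3* ratio per kb of exon moved more (0.584, 0.485 and 0.398 in control replicates 1 to 3, 0.543 ± 0.0324 in Atrx-cKO).

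The GPIb-IX-V receptor is made of the products of *Gp1ba*, whose GPIbα chain binds von Willebrand factor, *Gp1bb*, whose GPIbβ chain is disulfide-linked to GPIbα, and *Gp9* and *Gp5*. *Gp1ba* (ENSMUSG00000050675; chromosome 11, 70639122 to 70642036, plus strand) was at 71.6, 70.9 and 68.6 CPM in Atrx-cKO and 83.0, 41.6 and 44.3 CPM in controls. *Gp9* (ENSMUSG00000030054; chromosome 6, 87778072 to 87779768, plus strand) was at 44.4, 50.5 and 49.2 CPM in Atrx-cKO and 57.5, 28.6 and 28.8 CPM in controls. *Gp5* (ENSMUSG00000047953; chromosome 16, 30307685 to 30310779, minus strand) was at 85.3, 88.4 and 82.6 CPM in Atrx-cKO and 105, 48.6 and 56.1 CPM in controls. All 3 genes had the same order of groups as *Ppbp*, with 1 control library above and the other 2 controls below the Atrx-cKO libraries.

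The 3 subunit genes rose and fell together from library to library. Per kb of exon, *Gp9* stood at 1.91 to 2.21 times *Gp1ba* and *Gp5* at 1.44 to 1.57 times *Gp1ba*, and neither ratio separated the genotypes. The log2 fold changes were 0.32 (SE 0.24) for *Gp1ba*, 0.33 (SE 0.26) for *Gp9* and 0.29 (SE 0.26) for *Gp5*.

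*Gp1bb* (ENSMUSG00000050761; chromosome 16, 18620317 to 18622403, minus strand), the fourth subunit gene, received almost no counts. It had 3, 1 and 5 counts in Atrx-cKO and 10, 9 and 0 counts in controls, and was not tested in the main fit. DESeq2 on all 6 libraries and the edgeR fit without a filter included it, and each called 0 of 9 members. Its merged exon of 2087 bases shares 91.1% of its bases with *Sept5*, which runs on the same strand, and 41.5% with *Gm49601*, and only 149 bases belong to neither. The counts hold a separate entry for ambiguous reads, 0.644% to 0.701% of each library's total, which are assigned to no gene. The rule by which reads on shared bases entered it is not given in the sources used here. *Sept5*, a septin gene, had 642 to 982 counts per library and *Gm49601* had 203 to 336. The counts of *Gp1bb* are thus uncertain and cannot be read as its level. None of the other 8 members shares exonic bases with another gene of the annotation.

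*Vwf* (ENSMUSG00000001930; chromosome 6, 125546774 to 125686679, plus strand) encodes von Willebrand factor, the ligand of GPIbα, which both megakaryocytes and endothelial cells make. It was at 283, 288 and 282 CPM in Atrx-cKO and 368, 188 and 199 CPM in controls, the same arrangement as the genes above. The means were 284 ± 3.27 and 252 ± 101 CPM, and the log2 fold change, 0.18 (SE 0.24), was the lowest of the 8. Without control replicate 2 it was -0.00044. *Vwf* followed *Itga2b* more closely than it followed *Cdh5*, which encodes the cadherin of endothelial junctions. Per kb of exon, *Vwf* over *Itga2b* ranged from 0.296 to 0.333, whereas *Vwf* over *Cdh5* was 0.637, 0.363 and 0.373 in control replicates 1 to 3 and 0.483 to 0.503 in Atrx-cKO.

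*Treml1* (ENSMUSG00000023993; chromosome 17, 48359916 to 48367176, plus strand) encodes TLT-1, a receptor of alpha granule membranes that reaches the surface of activated platelets. It was at 72.9, 77.0 and 73.2 CPM in Atrx-cKO and 92.9, 44.4 and 48.0 CPM in controls. Control replicate 1 was 2.01 times the mean of the other controls, the widest gap of the 8 members. The means were 74.4 ± 2.30 and 61.8 ± 27.0 CPM, with a log2 fold change of 0.27 (SE 0.26).

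Measured per kb of merged exon, so that genes of unlike length can be set side by side, the level of *Ppbp* was 658 ± 165 CPM per kb (SD over the 6 libraries) and that of *Pf4* 237 ± 58.0. *Itga2b* (53.2 ± 13.9), *Gp9* (49.0 ± 13.6) and *Treml1* (48.6 ± 13.2) followed. *Gp5* (35.4 ± 9.70), *Gp1ba* (23.3 ± 6.09) and *Vwf* (16.7 ± 4.12) were lowest. The ranges over libraries were apart for *Ppbp* and *Pf4* and for *Pf4* and *Itga2b*, and the ranges of all later neighbors overlapped. Within single libraries the order was tighter: *Treml1* was above *Gp5*, *Gp5* above *Gp1ba* and *Gp1ba* above *Vwf* in 6 of 6 libraries. *Itga2b* was above *Gp9* in 5 of 6 and *Gp9* above *Treml1* in 3 of 6, so these 3 genes were not ordered beyond their spread.

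**Figure D2:**
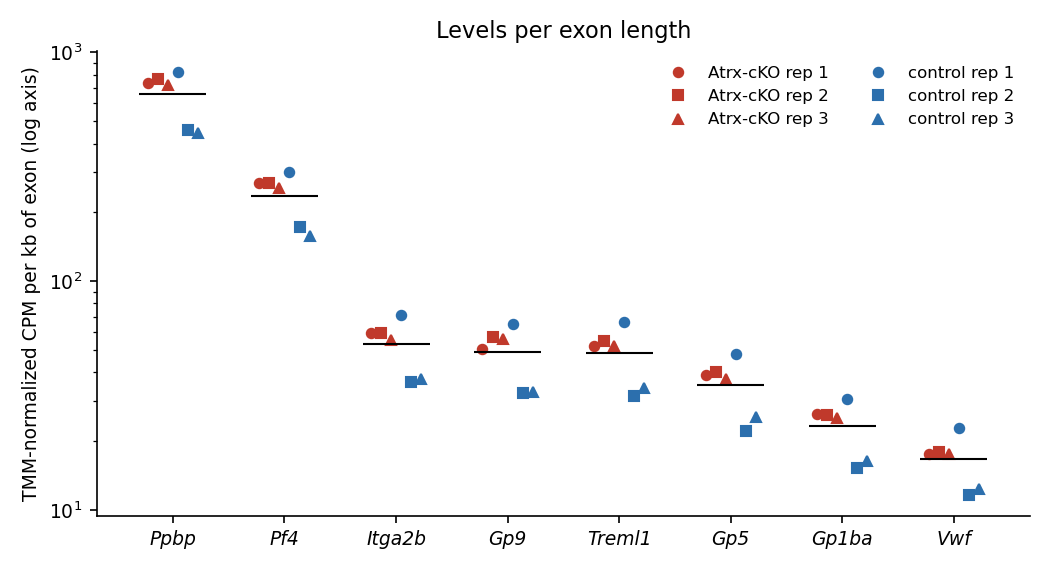
TMM-normalized CPM per kb of merged exon (log axis) for the 8 members, ordered by their mean over the 6 libraries (line); colors and shapes mark groups and replicates. *Ppbp* at 658 CPM per kb and *Pf4* at 237 CPM per kb stand apart, and the range of each later gene overlaps that of its neighbor.

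The genotype comparison asks whether loss of *Atrx* in preosteoblasts went with a change in these genes. Of the 8 members tested, 0 were higher and 0 were lower in Atrx-cKO at an adjusted p under 0.05, against 0.0145% (3 genes) and 0% of the 20636 genes. Unadjusted p-values ran from 0.154 for *Ppbp* to 0.487 for *Vwf*, all with a Benjamini-Hochberg adjusted p of 0.992 in edgeR's quasi-likelihood fit, and 0 members reached an unadjusted p under 0.05, against 1.59% of genes higher and 2.05% lower. With DESeq2, which also tested *Gp1bb*, 0 of 9 members passed the adjusted threshold in either direction, against 0.0794% of genes higher and 0.0752% lower. In 0 of 8 members did the genotypes not overlap, against 4.3% of genes with every Atrx-cKO library above every control and 4.01% below.

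The fitted difference was above 0 for all 8 members, with a median log2 fold change of 0.30 beside 0.00 over all genes tested, where 51.2% were above 0. In fold terms the values ran from 1.13 for *Vwf* to 1.29 for *Ppbp*. The 95% intervals were wide. Their lower bounds ran from 0.765-fold to 0.887-fold and their upper bounds from 1.67-fold to 1.91-fold, so that a decrease to 0.887-fold and an increase to 1.67-fold both lay within the interval of every member tested. The summed level of the 9 members was 1873, 1922 and 1822 CPM in Atrx-cKO and 2204, 1169 and 1173 CPM in controls, which is 1872 ± 50.2 against 1515 ± 597 CPM. The labels do not say that each library came from a separate mouse, so the p-values measure only the spread between these libraries, part of which may be technical.

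The spread between libraries lay in the controls. Among the 3 Atrx-cKO libraries the coefficient of variation of the members was 1.15% (*Vwf*) to 6.69% (*Gp9*), where counting error alone gives 0.463% to 1.89%. Among the controls it was 37.4% (*Pf4*) to 44.0% (*Gp5*), where counting error gives 0.530% to 2.14%. On the log2 scale the SD of the members was 0.02 to 0.10 in Atrx-cKO and 0.50 to 0.59 in controls, beside medians of 0.10 and 0.11 over the 8388 genes with a mean of at least 20 CPM. Of those genes, 2.99% had a control SD as large as the lowest of the members, 48.6% had an Atrx-cKO SD as small as the highest of the members, and 0.536% (45 genes, 8 of them members) had both.

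Control replicate 1 was the library that stood apart. It exceeded the mean of control replicates 2 and 3 by 1.82 times (*Pf4*) to 2.01 times (*Treml1*), where the median over all tested genes was 0.985. Without it, the differences of the 8 members were larger: log2 fold changes ran from 0.56 (*Vwf*) to 0.75 (*Gp9*), and the Atrx-cKO means were 1.47 to 1.68 times those of the 2 remaining controls. All 8 then had an unadjusted p under 0.05 in edgeR, against 4.13% of genes called higher, and an adjusted p of 0.0967, so 0 were called, where 0.00937% of genes were. DESeq2 on the same 5 libraries, added after the data were seen, called 8 of 8 higher and 0 lower, with adjusted p from 3.89e-13 (*Ppbp*) to 1.01e-07 (*Gp5*), against 1.15% of genes higher and 1.82% lower. The library left out there is the one in which the members were highest, so these values show how far the comparison rests on it and are not a second test of the genotype. Leaving out control replicate 2 or 3 moved the median log2 fold change the other way, to 0.12 and 0.14.

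**Figure D3:**
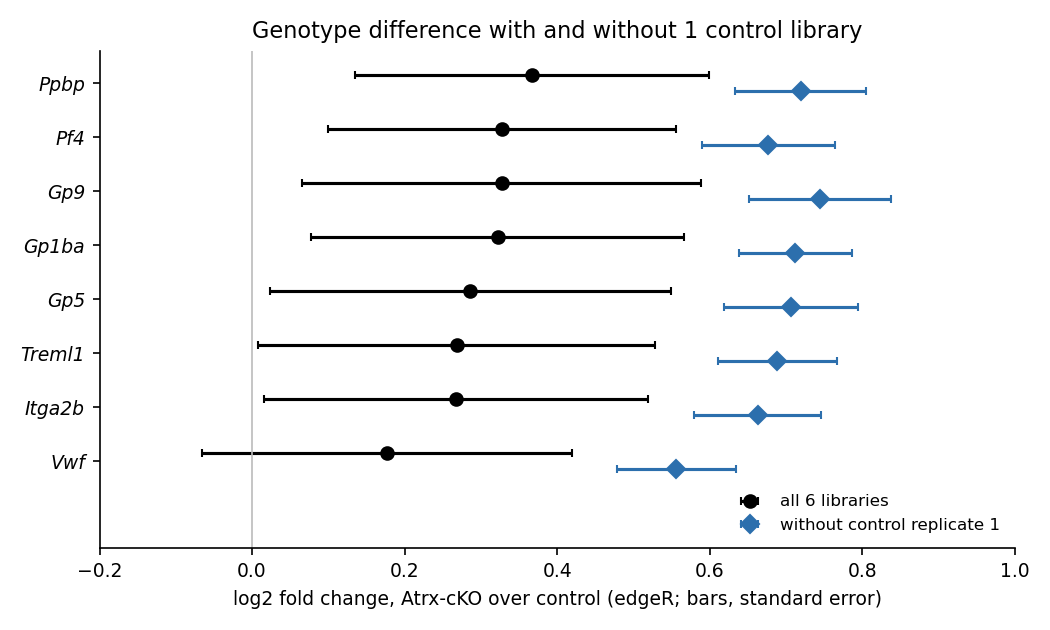
log2 fold change (Atrx-cKO over control; bars, standard error of edgeR's fit) of the 8 members with all 6 libraries (black circles) and without control replicate 1 (blue diamonds). With all libraries the values run from 0.18 to 0.37, and without that control from 0.56 to 0.75.

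Set against its own mean over the 6 libraries, each member gave nearly the same profile. In control replicate 1 the 8 members were at 1.25 to 1.37 times their means, in control replicate 2 at 0.626 to 0.730 and in control replicate 3 at 0.663 to 0.744. The Atrx-cKO replicates 1 to 3 were at 1.03 to 1.13, 1.08 to 1.17 and 1.04 to 1.14 times. Each library thus moved all 8 genes by a similar factor. The root mean square distance of a member from the mean profile of the 8 was 0.0267 (*Gp1ba*) to 0.0640 (*Pf4*) on the log2 scale, where the median over 16161 other genes with a mean of at least 1 CPM was 0.395. Each member entered that mean profile and the other genes did not, so the members' distances are partly small by construction.

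Of those 16161 genes, 9 (0.0557%) were as close to the mean profile as *Pf4*, the member farthest from it. The 5 nearest were *Mpig6b*, an inhibitory receptor of megakaryocytes and platelets (distance 0.0282), *Pls1*, which encodes an actin-bundling plastin (0.0314), *Alox12*, the platelet 12-lipoxygenase (0.0519), *Ube2l6*, which encodes a ubiquitin-conjugating enzyme that also serves ISG15 (0.0524), and *Ankrd35* (0.0575). *Mpig6b* was at 38.4, 41.0 and 37.8 CPM in Atrx-cKO and 48.5, 24.6 and 25.6 CPM in controls. *Alox12* was at 145, 149 and 149 CPM in Atrx-cKO and 172, 82.6 and 92.7 CPM in controls. Both had the members' order, with 1 control above and the other 2 controls below every Atrx-cKO library. Likeness here is a distance over 6 libraries and carries no test.

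The 4 wider lists of megakaryocyte and platelet genes, 59 genes in all and each tested, held 0 genes higher and 0 lower in Atrx-cKO at an adjusted p under 0.05, against the 0.0145% and 0% given above. At an unadjusted p under 0.05, 0 of the 59 were higher and 1 was lower, against 1.59% and 2.05% of genes in the same edgeR fit. DESeq2 also called 0 at the adjusted threshold. Without control replicate 1, edgeR still called 0 at the adjusted threshold, and at an unadjusted p under 0.05 the genes higher in Atrx-cKO were 6 of 12 regulators, 11 of 16 receptors, 4 of 14 granule genes and 12 of 17 shape and signaling genes, against 4.13% of genes. In the same fit 2 regulators and 1 granule gene were lower, against 5.59% of genes. The library left out there is the one highest in many of these genes, so the counts are not a second test of the genotype.

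Among 12 regulators of megakaryocyte development, 9 had a log2 fold change above 0 (median 0.07), against 51.2% of all genes tested. In 8 of the 12, against 15.1% of all genes, the highest level was in control replicate 1. The 4 highest per kb of exon were *Lyl1*, *Nfe2*, *Zfpm1* and *Fli1*, all transcription factor or cofactor genes of blood cells. *Nfe2*, whose product is needed for platelet shedding, was at 104, 90.8 and 84.5 CPM in Atrx-cKO and 112, 68.3 and 62.9 CPM in controls. *Zfpm1*, the cofactor of GATA1, was at 75.8, 83.1 and 84.3 CPM in Atrx-cKO and 112, 58.3 and 72.6 CPM in controls. For *Nfe2* and *Zfpm1* control replicate 1 was 1.70 and 1.72 times the mean of the other controls, and for *Fli1* and *Lyl1* it was 1.31 times.

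Among 16 receptor and surface genes, 16 had a log2 fold change above 0 (median 0.24), against 51.2% of all genes tested. Of the 16, 8 were highest in control replicate 1 (15.1% of all genes) and 13 were lowest in control replicates 2 and 3 (11.1%). The 4 highest per kb were *Cd9*, *Itgb3*, *Fcer1g* and *Pecam1*, genes that other cells of bone and marrow also express. *Cd9*, a tetraspanin gene, was at 287 ± 6.11 CPM in Atrx-cKO and 268 ± 11.1 CPM in controls, and control replicate 1 was only 1.07 times the mean of the other controls. *Pecam1*, also an endothelial gene, gave 1.13 and *Fcer1g*, also a myeloid gene, 1.30. Over the 16 genes this ratio ran from 1.07 to 1.98 with a median of 1.47, beside 1.94 for the members.

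Among 14 granule proteins and granule-forming factors, 7 had a log2 fold change above 0 (median 0.00), against 51.2% of all genes tested. In control replicate 1, 6 of the 14 were highest, against 15.1% of all genes. *Thbs1*, which encodes thrombospondin-1 of alpha granules and is also made by stromal cells, was the 1 gene of the 59 with an unadjusted p under 0.05. It was at 652, 722 and 771 CPM in Atrx-cKO and 839, 1213 and 1133 CPM in controls, so that every Atrx-cKO library was below every control. Over all genes tested, 4.01% had that arrangement and 2.05% were lower at an unadjusted p under 0.05 in edgeR, so 1 gene of 59 does not stand out. The log2 fold change of *Thbs1* was -0.57 (SE 0.15), with an adjusted p of 0.992 by edgeR, which is not a call. *Serpine2*, *Clec2d* and *F13a1* had control ratios of 1.09, 1.24 and 0.916 and log2 fold changes of -0.06, 0.06 and 0.23.

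Among 17 genes of platelet shape and signaling, 17 had a log2 fold change above 0 (median 0.18), against 51.2% of all genes tested. Of the 17, 10 were highest in control replicate 1 (15.1% of all genes) and 17 were higher there than in both other controls (34.6%). *Tubb1*, the β1-tubulin of the platelet marginal band, was at 108, 122 and 123 CPM in Atrx-cKO and 138, 68.1 and 85.7 CPM in controls. *Plek*, which encodes pleckstrin, was at 399, 407 and 445 CPM in Atrx-cKO and 458, 270.4 and 284 CPM in controls. Both genes showed the order of the members, with control ratios of 1.80 and 1.65. *Flna* and *Myh9*, cytoskeletal genes of nearly all cells, gave 1.14 and 1.24.

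**Figure D4:**
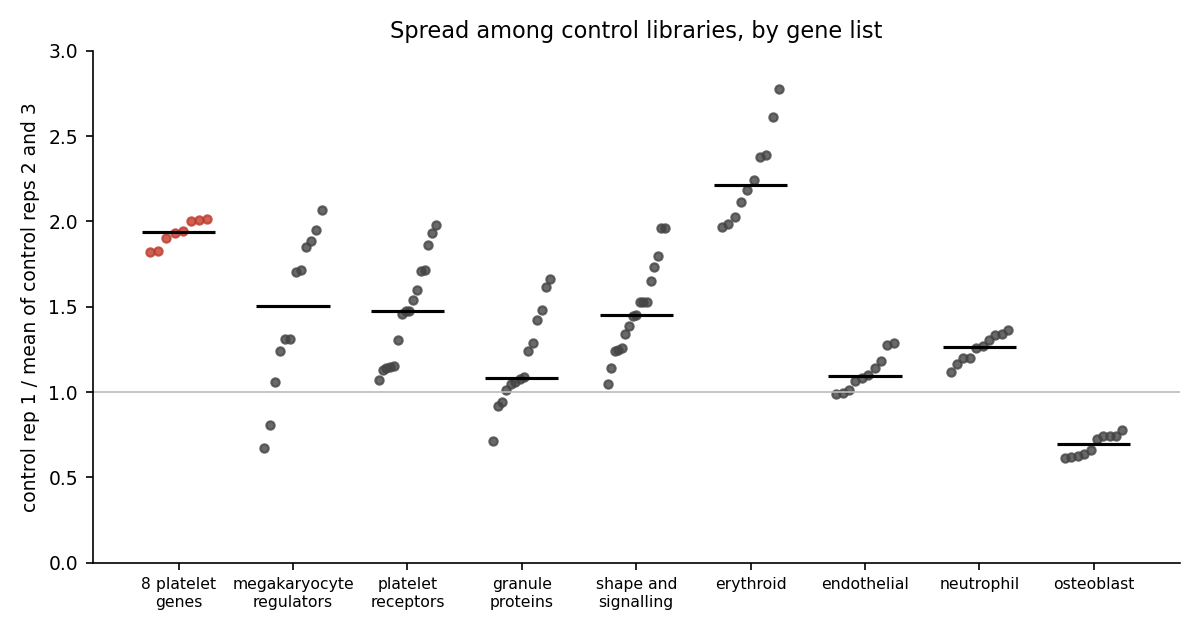
Level in control replicate 1 divided by the mean level of control replicates 2 and 3 (ratio of TMM-normalized CPM; gray line at 1), with 1 point for each gene and a black line at each list's median. The 8 members lie between 1.82 and 2.01, erythroid genes have a median of 2.21 and osteoblast genes one of 0.693.

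Markers of other cells were read beside the members in the same libraries, and in no list was a marker at 0 in any library. All 10 erythroid genes were highest in control replicate 1 (15.1% of all genes tested), and 9 of 10 were lowest in control replicates 2 and 3 (11.1%). Their summed level was 5160, 3995 and 4543 CPM in Atrx-cKO and 6638, 2593 and 3200 CPM in controls. The members over the erythroid sum varied 1.45-fold between libraries, less than over any of the other 6 marker lists. The erythroid sum thus had the members' arrangement, with the Atrx-cKO libraries between control replicate 1 and the other controls, but it spread more widely among the Atrx-cKO libraries.

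Osteoblast genes ran the other way among the controls. Their summed level was 111533 CPM in control replicate 1 and 188541 and 170129 CPM in control replicates 2 and 3, with 117869 to 121988 CPM in Atrx-cKO, and the control ratio was below 1 for all 10 (0.611 to 0.781). The library with the most platelet-gene RNA was therefore the one with the lowest summed osteoblast CPM. *Col1a1* and *Col1a2* made up most of that sum, at 53518 and 50159 CPM in control replicate 1. Control replicate 1 was the lowest library for *Col1a1*, *Col1a2*, *Alpl*, *Runx2* and *Dmp1*. For *Bglap*, *Bglap2*, *Ibsp*, *Sp7* and *Spp1* an Atrx-cKO library was lower. Without control replicate 1, 9 of 10 erythroid genes were higher and 7 of 10 osteoblast genes lower in Atrx-cKO at an unadjusted p under 0.05 in edgeR, against 4.13% and 5.59% of genes, beside the 8 of 8 members that were higher. That library was highest for all 10 erythroid genes and below the mean of the other controls for all 10 osteoblast genes. Leaving it out therefore favors these directions, and the counts are not a test of the genotype. The part of either list in the members' differences was not tested.

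Endothelial genes, which bear on *Vwf*, had summed levels of 1038 to 1066 CPM in Atrx-cKO and 1023, 912 and 956 CPM in controls. Every Atrx-cKO sum was thus above every control sum. Of the 10 genes, 1 was highest in control replicate 1 (15.1% of all genes tested) and 10 had a log2 fold change above 0 (51.2%). Every Atrx-cKO library was above every control for 3 (4.3%), and 2 were higher at an unadjusted p under 0.05 in edgeR (1.59%). At the adjusted threshold 0 were called. Neutrophil genes summed to 13426, 9658 and 9279 CPM in Atrx-cKO and 10981, 9209 and 7673 CPM in controls, with 1 of 10 highest in control replicate 1. The B cell sum was 238, 276 and 332 CPM in Atrx-cKO and 313, 180.2 and 257 CPM in controls, with 3 of 8 highest there, and mast cell genes reached 41.3 to 57.2 CPM in Atrx-cKO and 50.3 to 58.4 CPM in controls. In none of these sums did all 3 Atrx-cKO libraries lie between control replicate 1 and the other controls, as they did in the members. Control replicates 2 and 3 were the lowest pair of libraries in the endothelial and neutrophil sums, as in the members. The skeletal muscle sum was 11690 CPM in control replicate 3 against 696 to 2366 CPM in the other 5 libraries. Within that list *Myh1* and *Myh2* did not follow the sum. *Myh1* was at 134, 109 and 52.3 CPM and *Myh2* at 24.2, 21.5 and 10.7 CPM in control replicates 1 to 3.

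**Figure D5:**
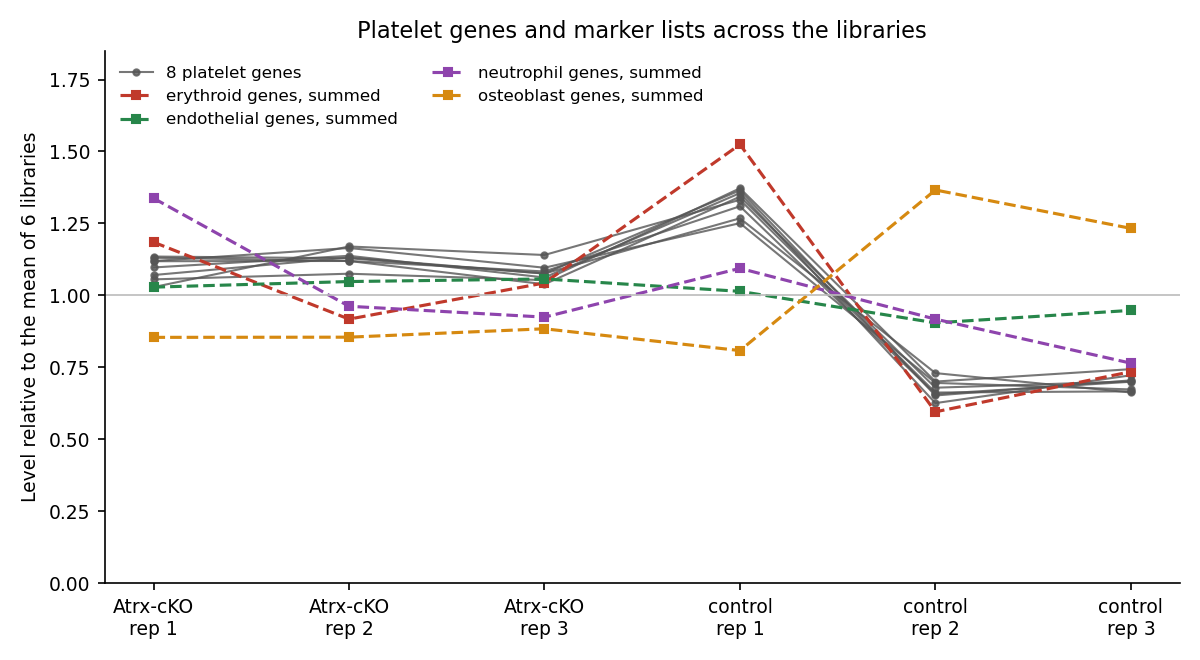
Level in each library relative to the mean of the 6 libraries, for the 8 members (gray lines) and for the summed erythroid, endothelial, neutrophil and osteoblast genes (dashed); lines join values of 1 gene or list and imply no order of libraries. The members reach 1.25 to 1.37 in control replicate 1 and 0.626 to 0.744 in the other controls, the erythroid sum follows them, and the osteoblast sum runs the opposite way among the controls.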

How the data were processed

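RNA-seq libraries of whole tibias, 3 of Atrx-cKO and 3 of control mice, were analysed, grouped by the labels' titles and genotypes. Library preparation with polyA selection, 150-bp paired-end sequencing and counting were done for the authors, who deposited raw counts per gene for each library. The submitters' processing notes name GRCm38 and DESeq2, and the aligner, counter and annotation are not given in the sources used here. The deposited counts were not altered. The 5 summary entries entered neither library sizes nor fits; no feature made up 51.6% to 52.4% of each table, not unique 3.69% to 4.56% and ambiguous 0.644% to 0.701%. GENCODE M21 (GRCm38) named 55141 of 55401 identifiers and gave coordinates and merged exon lengths. Promoters came from a RefSeq table of GRCm38.p6.

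Counts were fitted over all genes with edgeR 4.0.16 in R 4.3.3 (TMM, filterByExpr at its defaults, glmQLFit and glmQLFTest on genotype), with Benjamini-Hochberg adjustment and a threshold of 0.05. DESeq2 1.42.0 was the alternative. Other normalizations and filters, a replicate block, a skeletal muscle covariate and fits without each library were also run. Profiles were log2 of CPM plus 0.01, centered on each gene's mean. Intervals are 95% intervals of the fit. An exact permutation test of 3 against 3 libraries has 0.1 as its smallest p, so none was used.

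The members, the gene lists and the tests were chosen with earlier results of these data known. Genes named were the 9 members, the 4 highest per kb in each of 4 wider platelet lists and any called there, the 5 nearest in profile and those sharing exons with a member. The marker genes *Cdh5*, *Myh1* and *Myh2* and the 10 osteoblast genes were outside this rule. Of 11 erythroid symbols, 10 were found. No library was left out of the main comparison, and libraries of 1 group differed well beyond counting error (chi-square per degree of freedom of 15.8 to 137).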

Additional observations from a re-analysis of the deposited data

How the results depend on the processing

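The median log2 fold change of the members was 0.30 with all libraries and lay between 0.25 and 0.38 under RLE factors, upper quartile scaling, library totals without TMM, DESeq2, no filter, a filter of at least 10 counts in every library, a replicate block and a skeletal muscle covariate, with 0 members and 0 genes of the 4 wider lists called in each. The libraries left out mattered more. Across the fits without 1 library the median ran from 0.12 (without control replicate 2) to 0.70 (without control replicate 1), the log2 ratio of the summed levels from 0.15 to 0.68, and the log2 fold change of *Vwf* from -0.00044 (without control replicate 2) to 0.56. edgeR called 0 members in each of these fits. DESeq2 without control replicate 1, added after the data were seen, called 8 members and 23 genes of the wider lists higher, against 1.15% of all genes. It called 1 gene of the wider lists lower, against 1.82%. The median member log2 fold change there was 0.70. On the same libraries edgeR called none of these genes, and the cause of that gap was not tested. The library left out is the one in which the members were highest, so these counts are not a second test of the genotype. At an unadjusted p under 0.05, the genes of the wider lists higher or lower numbered 0 and 1 of 59 with all libraries, 6 and 2 without a filter (1.42% and 2.59% of all genes), 6 and 3 with the replicate block (2.02% and 2.72%), 33 and 3 without control replicate 1 in edgeR (4.13% and 5.59%), and 36 and 3 there in DESeq2 (5.12% and 6.3%). No pairing by replicate number was seen. Same-numbered libraries had correlations of -0.00315, 0.108 and -0.0996 in their deviations from the group means, which cannot exclude a pairing. The replicate block changed no member call (median 0.38). With 3 controls of which 1 stands apart, the precision of the comparison is set by the spread between libraries, and *Gp1bb* could not be measured from these counts.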
